A study of Mus musculus with 12 samples.

Results

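The blood vessels of the brain were examined through 10 genes that mark their cells, in 2 brain regions, the hippocampus (HC) and the anterior cingulate cortex (ACC), of trained and control mice. The 10 genes were taken by symbol from the 27381 genes measured. Of these, 7 are endothelial (Cldn5, Pecam1, Flt1, Kdr, Slco1a4, Abcb1a and Slc2a1) and 3 are mural (Pdgfrb, Rgs5 and Vtn), and all 10 were measured. Mice of the C57Bl6/J background, spelled C57B16/J in the labels, had surgery for head fixation at 8 to 12 weeks of age. All were water-deprived and placed head-fixed on an air-cushioned ball. Trained mice learned to answer a visual cue for water, whereas control mice (labelled untrained) saw the same sessions but were given water at random. Mouse Gene 2.0 ST arrays measured total RNA from trained and from control mice in each region. These 4 groups had 3 arrays each, 12 in all, and an array held RNA pooled from 5 mice for ACC or 7 for HC, so the spread between mice within a pool was not measured. These sizes are not given separately for the repeat, and the labels list 34 mice in all, 16 male and 18 female. That is too few for 3 separate HC pools of 7 in both trained and control mice, so the labels do not settle the make-up of the pools. The study itself reports more mice than the labels, enough for separate pools. It describes the pools of a condition in the first experiment as unique, and thus as biological replicates. The labels put pools 1 and 2 of every group in batch 1, the first experiment, and pool 3 in batch 2, its repeat.

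Endothelial cells line the vessels and, in the brain, are sealed to each other by tight junctions, which together with transporters in their membranes form the blood-brain barrier. Pericytes and smooth muscle cells, the mural cells, sit on the outer side of the endothelium within its basement membrane. Endothelial PDGF-B acts on the receptor Pdgfrb of pericytes and recruits them, while VEGF from nearby cells acts on the endothelial receptors Kdr and Flt1. Because whole tissue was used, fewer vascular cells and less RNA per vascular cell cannot be told apart in any value below.

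Kdr and Vtn were the members that differed between the regions. To show the letters in front of them, the 250 bases upstream of the annotated start of each are printed with those of Flt1, the sister receptor of Kdr. The sequences are from RefSeq (build GRCm38.p6), read 5′ to 3′ on the strand of the gene, at chr5:75978456-75978705 on the minus strand (Kdr), chr5:147726012-147726261 on the minus strand (Flt1) and chr11:78498870-78499119 on the plus strand (Vtn). Capitals mark the GC box GGGCGG and the TATA motif TATAAA, each searched on both strands.
Kdr: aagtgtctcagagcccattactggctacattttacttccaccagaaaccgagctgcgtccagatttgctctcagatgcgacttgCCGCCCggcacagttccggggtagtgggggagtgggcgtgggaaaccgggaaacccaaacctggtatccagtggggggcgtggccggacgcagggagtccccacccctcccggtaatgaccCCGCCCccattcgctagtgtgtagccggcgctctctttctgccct
Flt1: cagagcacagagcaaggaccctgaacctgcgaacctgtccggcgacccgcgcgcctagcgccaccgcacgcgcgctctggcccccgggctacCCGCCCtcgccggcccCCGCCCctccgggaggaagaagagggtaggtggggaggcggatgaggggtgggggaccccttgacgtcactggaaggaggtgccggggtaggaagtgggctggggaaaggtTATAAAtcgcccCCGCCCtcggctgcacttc
Vtn: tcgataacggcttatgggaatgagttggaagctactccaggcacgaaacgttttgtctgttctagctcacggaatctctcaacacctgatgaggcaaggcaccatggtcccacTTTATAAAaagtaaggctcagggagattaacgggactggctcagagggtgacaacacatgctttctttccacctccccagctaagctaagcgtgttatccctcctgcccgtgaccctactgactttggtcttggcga
The Kdr sequence held 2 GC boxes and 0 TATA motifs, the Flt1 sequence 3 GC boxes and 1 TATA motif, and the Vtn sequence 0 GC boxes and 2 TATA motifs, which overlap on opposite strands. Among 32817 promoters of the same length, 32.7% held a GC box and 12.4% a TATA motif. Of the 10 members, 8 had a promoter in the table. Cldn5 held 1 GC box and Slc2a1 2, while Slco1a4, Abcb1a and Rgs5 held neither motif. The other motifs searched on both strands were the ETS motif (CCGGAA or CAGGAA), the SOX motif AACAAT and the TCF motif CTTTGA, held by 35%, 9.42% and 13.8% of promoters and not in capitals here. Kdr and Rgs5 held 1 ETS motif each, Slco1a4 held 1 SOX motif, and Rgs5 and Abcb1a held 1 and 2 TCF motifs, while Cldn5, Flt1, Slc2a1 and Vtn held none of the 3. These matches are letters in a window and say nothing of binding.

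All 10 members were above background. The 1346 odorant and vomeronasal receptor genes, used as the background on these arrays, lay at 1.42 (median) and 2.76 (95th percentile) on the log2 scale, and every member had a mean level of 4.67 or more. Levels of different genes rest on different probes and are not compared with each other here. The arrays of a group correlated at 0.994 to 0.995 over all genes, and the array medians lay between 3.34 and 3.42. Among the region markers, Prox1, a transcription factor of dentate granule cells, was 2.54 higher in HC on the log2 scale (limma, adjusted p = 4.84e-10).

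**Figure D1:**
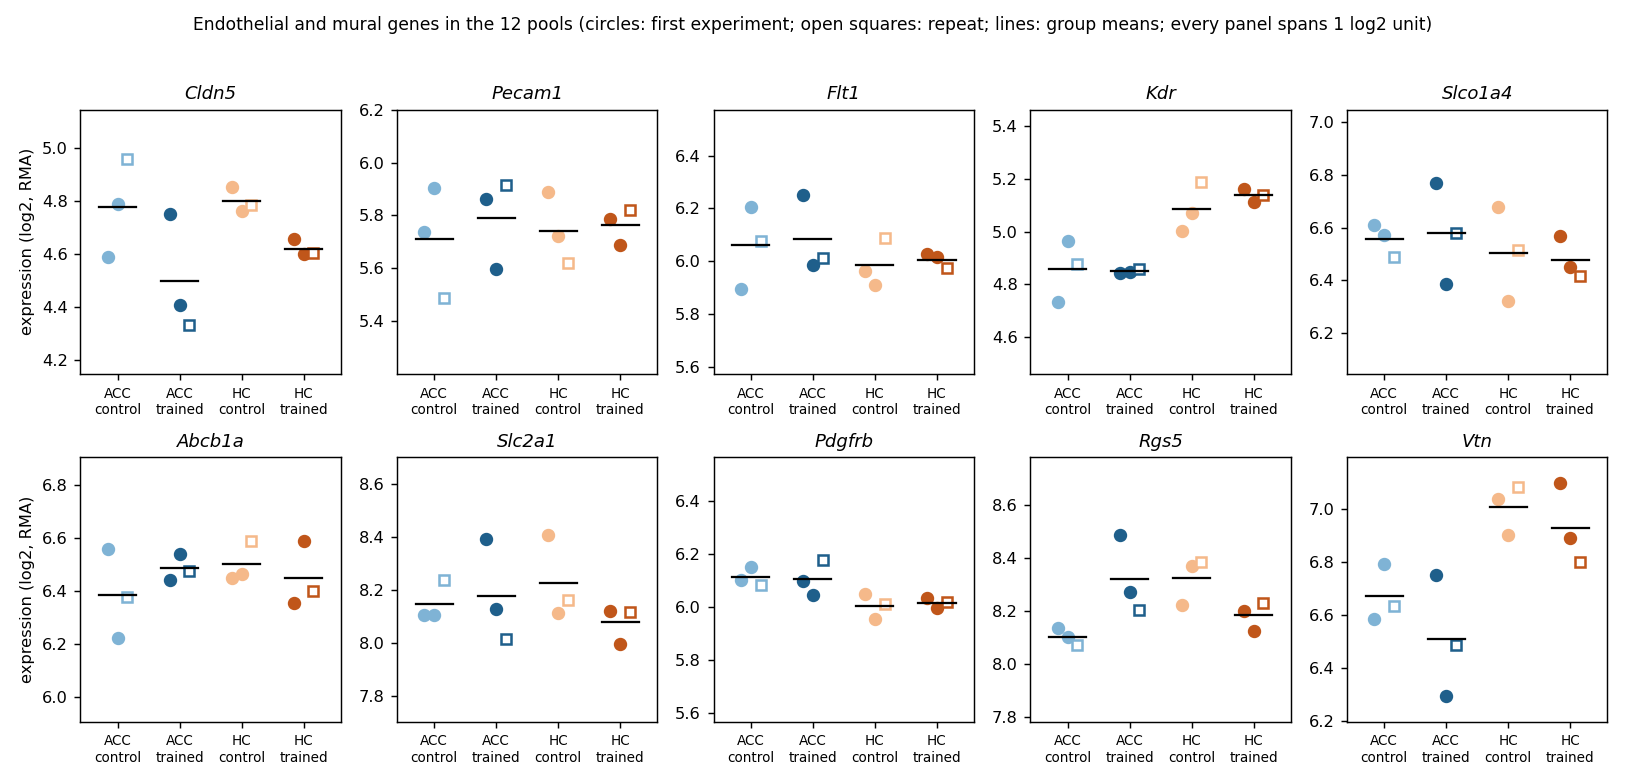
Expression (log2, RMA) of the 10 genes in each of the 12 pools, with circles for the first experiment, open squares for the repeat and lines for group means. Each panel spans 1 log2 unit. Kdr and Vtn show all 6 HC pools above all 6 ACC pools, and the pools of the regions overlap for the other 8 genes.

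The first comparison asked whether the vascular genes differ between the 2 regions. Kdr and Vtn were higher in HC, and the other 8 genes were not called. Kdr, the main signalling receptor for VEGF on endothelium, measured 4.73, 4.96 and 4.88 in the ACC control pools and 4.84, 4.85 and 4.86 in the ACC trained pools. It measured 5.00, 5.07 and 5.19 in the HC control pools and 5.16, 5.11 and 5.14 in the HC trained pools. The highest ACC pool thus lay just under the lowest HC pool. The difference was 0.26 on the log2 scale (SE 0.06, 95% interval 0.14 to 0.38), or 1.20-fold, with an adjusted p of 0.00545 in limma over all genes.

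Vtn encodes vitronectin, an adhesive matrix protein that pericytes make in the mouse brain. Its values were 6.58, 6.79 and 6.64 in ACC control and 6.75, 6.29 and 6.49 in ACC trained. In HC they were 7.04, 6.90 and 7.08 in control and 7.10, 6.89 and 6.80 in trained. The regions did not overlap, but the highest ACC pool (6.79) and the lowest HC pool (6.80) nearly touched. Vtn was 0.38 higher in HC (SE 0.08, 95% interval 0.20 to 0.56), or 1.30-fold, with an adjusted p of 0.00636 in limma. For both genes the two-sided exact permutation test of 6 against 6 pools gave an unadjusted p = 0.00216, the smallest it allows. Any gene whose regions do not overlap gets this value, so it adds nothing to the lack of overlap.

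So 2 of the 10 members were called, both higher in HC. Across all genes, 18.5% were called, 9.71% as higher and 8.74% as lower, so the share of members called was near that of all genes. All 10 members were among the 13691 genes at or above the median level. In the fit of those genes alone, 5023 genes and 2 members were called, so the share of members was under that of brighter genes. Pools that do not overlap between the regions were found for 11.1% of all genes, and for 5.99% with HC higher. The median difference over the 10 members was 0.02, against -0.01 over all genes. Both genes kept their size in each batch. Kdr differed by 0.24 in the first experiment and 0.30 in the repeat, and Vtn by 0.38 in each. In the first experiment alone neither passed, with adjusted p-values of 0.10 for Kdr and 0.0791 for Vtn in limma.

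**Figure D2:**
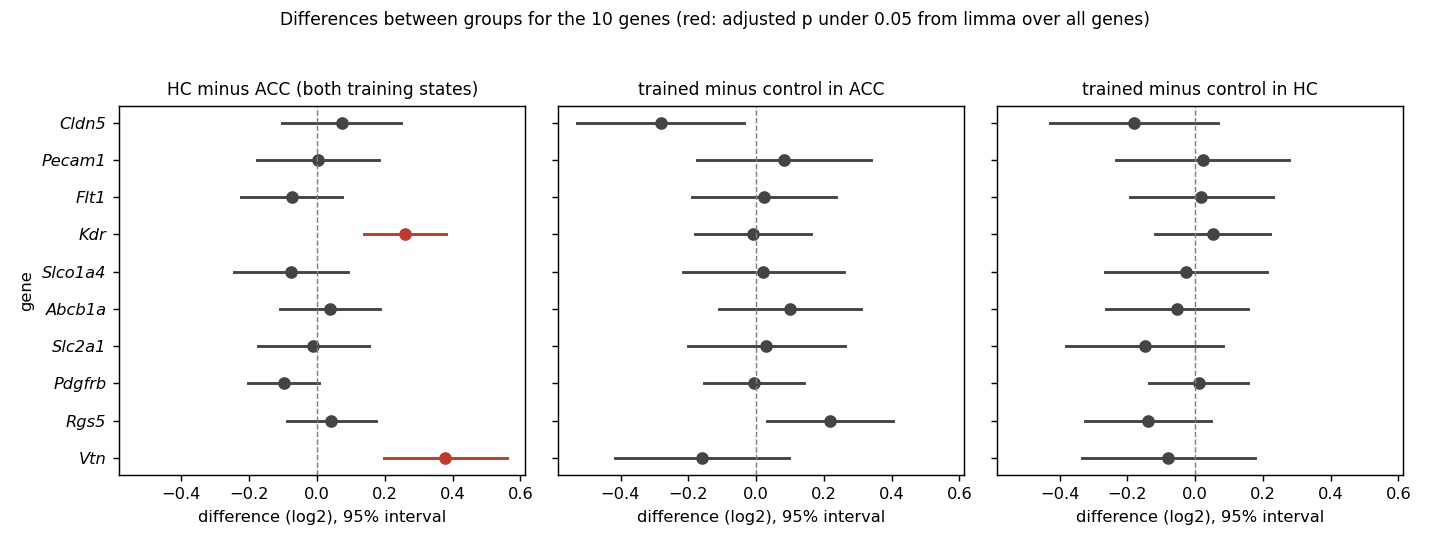
Differences (log2) of the 10 genes between regions and between trained and control mice within each region, as points with 95% intervals from limma. Red marks an adjusted p under 0.05 over all genes, which only Kdr and Vtn reached, and only between regions.

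The 8 members that were not called differed by -0.10 to 0.07 on the log2 scale, with adjusted p-values of 0.189 to 0.987 in limma. Their 95% intervals ran from -0.24 to 0.25 at the widest, so a difference beyond 1.19-fold in either direction lay outside all of them. Pecam1, an adhesion molecule between endothelial cells, ran from 5.49 to 5.91 in ACC (median 5.80) and from 5.62 to 5.89 in HC (median 5.75). Flt1, which binds VEGF with high affinity and limits its action on Kdr, ran from 5.90 to 6.25 in ACC and from 5.91 to 6.09 in HC. The HC pools of both genes lay within the span of the ACC pools.

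Barrier genes showed the same overlap. Cldn5, the main claudin of brain endothelial tight junctions, ran from 4.33 to 4.96 in ACC and from 4.60 to 4.85 in HC. Slc2a1, the glucose transporter of the barrier, ran from 8.02 to 8.39 in ACC and from 8.00 to 8.41 in HC, with a median of 8.12 in each. Their differences were 0.07 (SE 0.08) and -0.01 (SE 0.08) on the log2 scale.

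The efflux and organic anion transporters did not separate the regions either. Slco1a4 had a median of 6.58 in ACC (6.39 to 6.77) and 6.48 in HC (6.32 to 6.68). Abcb1a, which encodes P-glycoprotein, had a median of 6.46 in each region, with pools from 6.22 to 6.56 in ACC and from 6.35 to 6.59 in HC. Both have close copies, and whether transcripts of these copies reach their probes was not tested. Their identity may thus be less certain than that of the others. Of these copies, Slco1a5 and Slco1a6 had mean levels of 1.69 and 1.54 and Abcb1b of 2.76, at or under the 95th percentile of the receptor genes.

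Pdgfrb was the most even of the members. It ran from 6.05 to 6.18 in ACC (median 6.10) and from 5.96 to 6.05 in HC (median 6.02), and the ranges met at 6.05. Its within-group SD of 0.0448 was at percentile 1.01 of all genes. The difference of -0.10 (SE 0.05) had an adjusted p of 0.189 in limma, and the two-sided exact permutation test of its pools alone gave an unadjusted p = 0.00433. Pdgfra, the related receptor of oligodendrocyte precursors and fibroblasts, was 0.42 higher in HC (SE 0.06, adjusted p = 0.000407 in limma).

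Rgs5, a regulator of G protein signalling that marks pericytes, differed between the regions by 0.04 (SE 0.06, adjusted p = 0.702 in limma). Within control mice it was 0.22 higher in HC (SE 0.09, adjusted p = 0.111), and within trained mice it was 0.14 lower (SE 0.09, adjusted p = 0.414). The difference between these values is tested with training below. In control mice alone 0 members were called between regions, with a smallest adjusted p of 0.0764, against 13.3% of all genes; 3 members had an unadjusted p under 0.05 (27.5% of all genes). In trained mice alone Kdr (0.29, adjusted p = 0.0367) and Vtn (0.42, adjusted p = 0.0431) were called, against 9.3% of all genes (4.78% higher). Leaving out 1 pool at a time left 0 to 2 members called in trained mice, and 2 only when it was pool 2 of ACC control. Neither gene was called there with batch as a block (adjusted p = 0.0539 for Kdr and 0.0647 for Vtn), with the replicate block, after quantile normalization again, in the first experiment alone or with the groups of the contrast alone. The region difference of neither gene was shown to depend on training (adjusted p = 0.917 for Kdr and 0.927 for Vtn in limma).

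For the level by group, Kdr was in the order ACC trained (4.85 ± 0.01, SD, n = 3), ACC control (4.86 ± 0.12), HC control (5.09 ± 0.10) and HC trained (5.14 ± 0.02). Vtn was in the order ACC trained (6.51 ± 0.23), ACC control (6.67 ± 0.11), HC trained (6.93 ± 0.15) and HC control (7.01 ± 0.09). In both genes the groups of the same region, which are next to each other in this order, were not called apart.

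The second comparison asked whether training changes the vascular genes. In ACC 0 of the 10 members and 0% of all genes passed an adjusted p of 0.05 in limma, and the same held in HC and for the difference between the regions. At an unadjusted p under 0.05 there were 2 members in ACC, 0 in HC and 1 for the difference, against 6.95%, 6.82% and 8.86% of all genes. The intervals over all members ran from -0.53 to 0.41 on the log2 scale in ACC and from -0.43 to 0.28 in HC.

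The 2 members in ACC were Cldn5 and Rgs5. Cldn5 measured 4.59, 4.79 and 4.96 in ACC control and 4.75, 4.41 and 4.33 in ACC trained, so the groups overlapped. The trained mean was 0.28 lower on the log2 scale (SE 0.11, adjusted p = 0.671 in limma), with differences of -0.11 in the first experiment and -0.63 in the repeat. In HC it measured 4.85, 4.77 and 4.79 in control and 4.66, 4.60 and 4.60 in trained. Here the groups did not overlap, as for 12.3% of all genes in HC (6.26% with trained lower). The HC difference was -0.18 (SE 0.11, adjusted p = 0.836), with -0.18 in each batch.

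Rgs5 measured 8.14, 8.10 and 8.07 in ACC control and 8.49, 8.27 and 8.21 in ACC trained. All 3 trained pools lay above the control pools, as for 11.6% of all genes in ACC (5.66% with trained higher). The difference was 0.22 (SE 0.09, adjusted p = 0.659 in limma), and it was 0.14 without pool 1 of the trained mice. In HC Rgs5 measured 8.22, 8.37 and 8.38 in control and 8.20, 8.13 and 8.23 in trained. The difference there was -0.14 (SE 0.09, adjusted p = 0.828), and the pools overlapped. The training difference in HC minus that in ACC was -0.36 (SE 0.12, unadjusted p = 0.0114, adjusted p = 0.401 in limma), with the same sign in both batches.

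In the same pool 1 of ACC trained, the mean of 28 endothelial identity genes was 4.71 (the other ACC pools, 4.50 to 4.72), that of 18 pericyte genes 4.15 (3.99 to 4.09) and that of 15 fibroblast genes 4.82 (4.44 to 4.77). The ACC pools also differed in sex-linked genes, of which none was called for training. The mean of the Y-linked genes Kdm5d, Eif2s3y and Uty was 3.38 to 3.59 in the ACC control pools and 3.89 to 5.11 in the ACC trained pools, and Xist, which female cells transcribe from their silenced X chromosome, was 8.20 to 8.52 and 6.66 to 8.18. In HC the Y-linked mean was 3.96 to 5.04 in control and 3.78 to 4.87 in trained, and the groups overlapped. Their part in the Cldn5 and Rgs5 values was not tested. For the remaining members the training difference lay between -0.16 and 0.10 on the log2 scale in ACC and between -0.15 and 0.05 in HC. Signs repeated between the batches for 5 of 10 members in ACC, 4 of 10 in HC, 2 of 10 for the difference between the regions in training, and 7 of 10 between the regions.

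**Figure D3:**
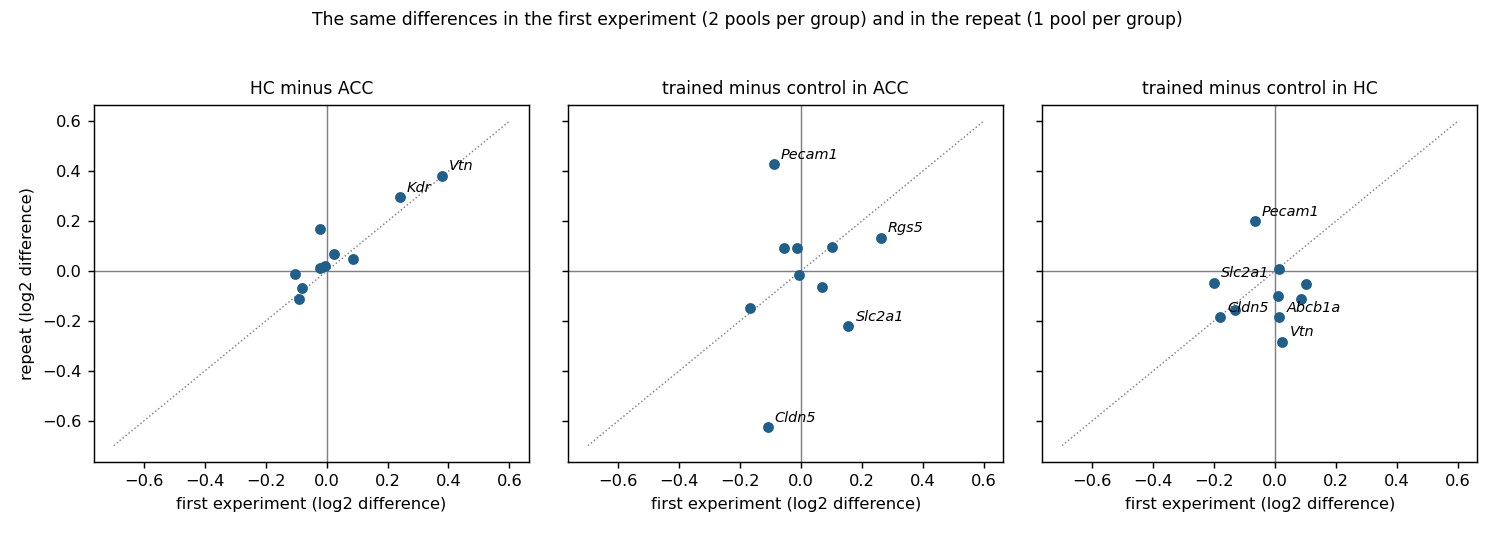
Each point is 1 of the 10 genes, with its difference (log2) in the first experiment (2 pools per group) on the horizontal axis and in the repeat (1 pool per group) on the vertical axis, and a dotted line where the values are equal. Kdr and Vtn lie near the line between regions. For training, Cldn5 in ACC is at -0.11 and -0.63.

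Related genes placed these values among their pathways. Over 11 lists of vascular genes (185 genes measured, each counted once), 34 were higher in HC and 12 lower, or 24.9% called against 18.5% of all genes. The median difference was 0.00 against -0.01 over all genes. Calls were more frequent among brighter genes: of the 13691 at or above the median level, fitted alone, 5023 were called. The share of the vascular genes was not compared with that of genes of like level. Of 28 endothelial identity genes, 0 were higher and 3 lower: Cd34, a sialomucin of endothelium and progenitor cells (-0.89), Tie1, an orphan receptor of the angiopoietin system (-0.30), and Egfl7, a secreted endothelial factor (-0.22). Cdh5, the cadherin of endothelial junctions, differed by -0.06 (SE 0.05, adjusted p = 0.516 in limma). Of 18 pericyte genes 1 was higher, the transcription factor Zic1 (0.69), and of 16 smooth muscle genes 1 was higher, the actin-binding Cald1 (0.55). Abcc9, a subunit of a pericyte potassium channel, differed by -0.01 (SE 0.08).

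The signalling lists held calls in both directions. Of 23 genes of VEGF, angiopoietin and Notch signalling, 7 were higher in HC and 3 lower. Among the ligands of the VEGF receptors, Vegfa was 0.28 lower in HC on the log2 scale (SE 0.06, adjusted p = 0.00762 in limma). Pgf, a ligand of Flt1, was 0.42 higher (adjusted p = 0.0288), and it and Angpt2, also among the 7, had mean levels of 2.07 and 1.96, under the 95th percentile of the receptor genes. Nrp1 (1.27) and Nrp2 (1.16), co-receptors of VEGF and semaphorins that neurons also express, and Angpt1 (0.86), an activating ligand of the endothelial receptor Tek, were higher. Plxnd1, a semaphorin receptor, was lower (-0.76). Of 14 PDGF and TGF-beta genes, 4 were higher and 2 lower, with Tgfb2, a TGF-beta ligand, at 1.66. Pdgfb, the ligand of Pdgfrb, differed by -0.23 (SE 0.08, adjusted p = 0.0746).

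Of 29 barrier junction and transport genes, 4 were higher and 2 lower. The junction genes Ocln (0.60) and F11r (0.49) were higher, and Lsr, a protein of tricellular junctions, was lower (-0.24). Of 16 genes of Wnt signalling to the barrier, 4 were higher and 0 lower, among them Tspan12 (0.60) and its partner receptor Fzd4 (0.38), and the ligand Wnt7a (0.34). Of 12 arterial genes 2 were higher and 1 lower, of 8 venous and activation genes 3 were higher and 0 lower, with Nr2f2, a venous transcription factor, at 1.08, and of 7 fenestrated endothelium genes 4 were higher and 0 lower. Plvap, the diaphragm protein that defines fenestrated vessels, differed by -0.02 (SE 0.07). Of 15 basement membrane genes 5 were higher and 1 lower, with Lamb1, a laminin chain, at 1.02. Many genes of these lists are also expressed outside vessels.

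**Figure D4:**
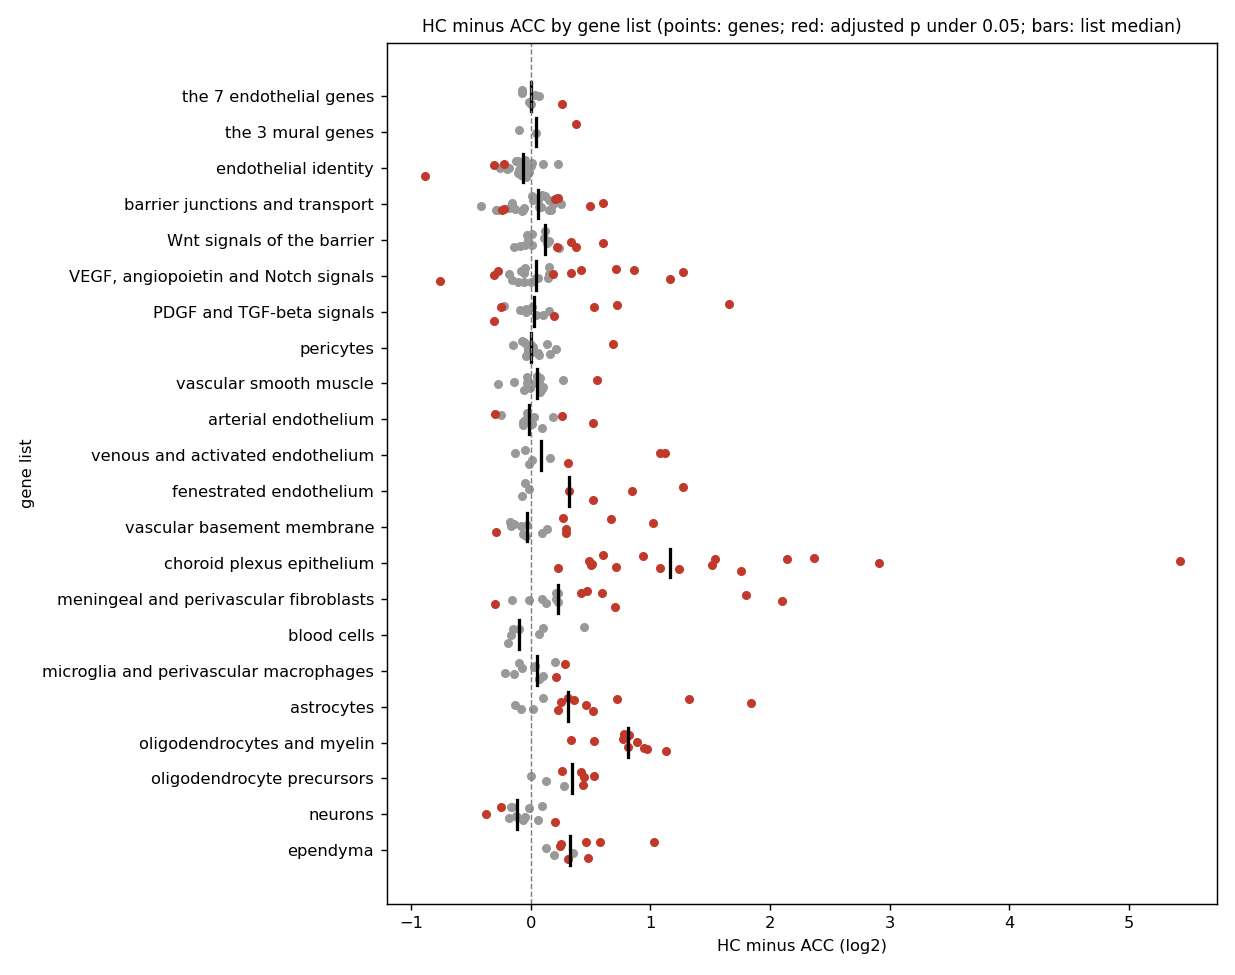
HC minus ACC (log2) for every gene of each list, with 1 point per gene, red for an adjusted p under 0.05 in limma and a bar at the median of the list. The medians of the endothelial identity and pericyte genes, -0.06 and 0.00, lie near 0, though single genes such as Cd34 and Zic1 lie further out. The choroid plexus genes lie to the right, with a median of 1.16.

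Markers of other cells also differed between the regions. All 16 choroid plexus genes, 12 of them above background, were higher in HC, with Ttr, the transthyretin of that epithelium, at 5.42. The mean of the list ran from 3.00 to 3.13 over the ACC pools and from 4.09 to 4.66 over the HC pools. Of 15 fibroblast genes 6 were higher and 1 lower (means 4.44 to 4.82 in ACC and 5.00 to 5.19 in HC). The first 2 fibroblast genes listed went the other way. Col1a2 was the lower gene (-0.30, adjusted p = 0.00653 in limma), and Col1a1 was not called (-0.16, adjusted p = 0.221). Of 13 astrocyte genes 9 were higher (7.24 to 7.35 and 7.69 to 7.82), as were 11 of 11 oligodendrocyte genes (6.20 to 7.04 and 7.30 to 7.36). Their part in the Kdr and Vtn values was not tested. Of 7 blood cell genes, 2 of them above background, 0 were called over both training states. In control mice alone S100a8 and S100a9, both under the 95th percentile of the receptor genes, were called lower in HC (smallest adjusted p = 0.00667). Of 12 microglial genes 2 were higher, and of 13 neuronal genes 1 was higher and 2 lower. Of 8 oligodendrocyte precursor genes 5 were higher, as were 7 of 10 ependymal genes, 6 of the 10 being above background.

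The genes beside the called members were also read. Kit, the nearest protein-coding gene on one side of Kdr on chromosome 5, was 0.85 higher in HC (SE 0.08, adjusted p = 5.06e-06 in limma), while Srd5a3 on its other side differed by 0.01. Sarm1 and Sebox, on either side of Vtn on chromosome 11, differed by 0.05 and 0.02. Rgs4, the neighbour of Rgs5 on chromosome 1 and a regulator of the same family found in neurons, was 1.10 lower in HC (SE 0.09, adjusted p = 2.37e-06), where Rgs5 was not called.

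For training, 0 of the 185 vascular genes were called in ACC, in HC or for the difference in limma, where 11, 6 and 15 had an unadjusted p under 0.05 (5.95%, 3.24% and 8.11%, against 6.95%, 6.82% and 8.86% of all genes). The smallest unadjusted p among the vascular genes, in ACC and for the difference, was that of Abcb1b, the close copy of Abcb1a. It measured 2.85, 2.80 and 3.09 in ACC control and 2.20, 2.61 and 2.34 in ACC trained, values around the 95th percentile of the receptor genes. Its training difference was -0.53 in ACC (SE 0.11, adjusted p = 0.505 in limma) and 0.07 in HC (SE 0.11, adjusted p = 0.964). Between the regions Abcb1b was called in trained mice (0.51 higher in HC, adjusted p = 0.0121) and not in control mice (-0.08, adjusted p = 0.708), with an adjusted p of 0.337 for the dependence on training. Abcb1a differed by 0.10 in ACC (SE 0.10) with training.

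Lastly, co-variation within groups was described by subtracting each group's mean from its pools. Over the 12 pools, the 21 pairs of endothelial genes had Pearson correlations with a median of 0.13 (-0.51 to 0.79), the 3 mural pairs of 0.41, and the 21 pairs of an endothelial with a mural gene of 0.33, up to 0.80 for Flt1 and Vtn. Abcb1a ran against every other member, with correlations of -0.51 to -0.06. The points share their arrays and their normalization, so these are descriptions only.

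**Figure D5:**
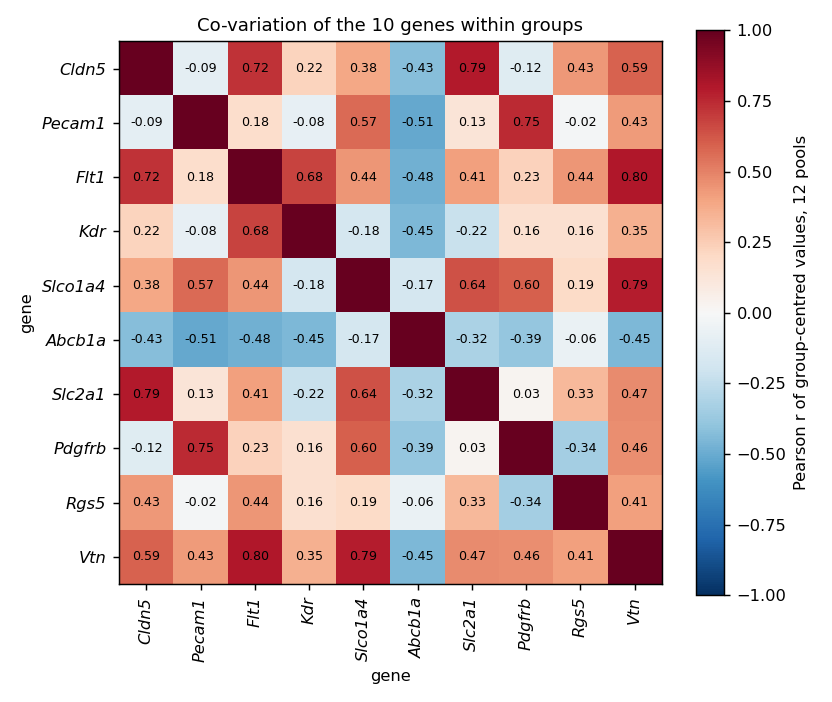
Pearson correlation between each pair of the 10 genes over the 12 pools after the group means were removed, on a scale from -1 (blue) to 1 (red). Flt1 and Vtn have the highest value (0.80), and the row of Abcb1a is below 0 throughout.

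The genes most like the mean of the 7 endothelial members over these 12 pools were Zic2 (r = 0.966), Repin1 (0.95) and Rnf149 (0.923), and those most like the mean of the 3 mural members were Shc3 (0.926), Lrrc6 (0.902) and Crtap (0.901). Of 27 endothelial identity genes above background, 24 had a correlation above 0 with the endothelial mean (median 0.29), against 7724 of all 16055 genes above background. The median was 0.34 for 16 pericyte genes, 0.27 for 14 smooth muscle genes, 0.36 for 10 microglial genes and 0.26 for 13 astrocyte genes. It was 0.32 for 2 blood cell genes, 0.08 for 12 choroid plexus genes and -0.03 for 11 oligodendrocyte genes. For 13 neuronal genes it was -0.07, and for all 16055 genes above background -0.02. Values like that of the endothelial identity genes were thus also found in lists of cells outside the vessel wall.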

How the data were processed

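Total RNA of ACC and HC was pooled, labelled and hybridised to 12 arrays. The authors summarised probes by Robust Multiarray Average (affy 1.62.0, R 3.6.0, per the labels) into 1 set per Entrez gene and deposited log2 values, used as they stand. Which arrays were normalized together and the genome build are not given in the sources used here. Of 27381 probe sets, 26794 have 1 symbol.

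Means of the 4 groups were fitted to all genes with limma 3.58.1 (R 4.3.3; lmFit and eBayes), without a filter or covariate, with Benjamini-Hochberg adjustment across every gene and a threshold of 0.05. Precision depends on the number of pools and on the spread between them, which differs between genes. Arrays carry no read depth. The procedure was run on simulated data in which the noise was independent between genes and arrays, without batches or paired mice. That run does not show how batches or pairing bear on the results.

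The members and lists were chosen with earlier results of these data known, so lists are described by counts and medians. Of 314 listed genes, 12 were not analysed here. The rule for named genes took from each vascular list the 4 genes with the smallest p between regions. It also took the 3 vascular genes with the smallest p for each training contrast and the first 2 markers of other cell types. Of the genes most correlated with the mean of the endothelial or of the mural members, it took 6 each. Only some of the genes that the rule took are named above. Cdh5, Abcc9, Vegfa, Pgf, Angpt2, Pdgfb, S100a8, S100a9, Plvap, Pdgfra, the sex-linked genes, the close copies and the neighbours were named outside it, after their values were seen.

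The fits were repeated with a block for batch or for replicate number, in the first experiment alone, with a trend and robust variance, array weights, quantile normalization again, median centring, the brighter genes alone (at or above the median level), the groups of a contrast alone, and each array left out. Centring on 28 endothelial identity genes was chosen after seeing the data.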

Additional observations from a re-analysis of the deposited data

How the results depend on the processing

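Between the regions, Kdr and Vtn were each called in 20 of 21 alternatives. In the first experiment alone, which drops pool 3 of every group, 0 members were called, though Kdr was 0.24 and Vtn 0.38 on the log2 scale. Leaving out 1 pool moved Kdr between 0.23 and 0.29 and Vtn between 0.32 and 0.44, with both called each time. Centring on the endothelial identity genes raised HC minus ACC of the median gene by 0.10 and gave 0.36 for Kdr and 0.48 for Vtn.

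In trained mice alone the count of 2 fell to 0 with batch as a block, with the replicate block, in the first experiment alone, after quantile normalization again and with the groups of the contrast alone. Leaving out 1 pool gave 0 to 2. It gave 0 without ACC control pool 3, ACC trained pool 2 or 3, or HC trained pool 1 or 2, and 1 without ACC control pool 1, ACC trained pool 1, any HC control pool or HC trained pool 3. In control mice alone the count of 0 became 2 with a trend and robust variance (Rgs5 and Vtn), and 2 after median centring, with the brighter genes alone and after centring on the endothelial identity genes (Kdr and Vtn). Leaving out 1 pool gave 0 to 1, with 1 called without ACC trained pool 1. The cause was not tested.

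For training, 0 members were called under every alternative run. Over all alternatives, 101 of 1300 differences of members had the other sign, of which 0 were called, the largest being 0.0977 in size. Over 18 pairs of the same replicate number in different groups, 0 had a correlation of deviations over 0.1 (median -0.076). For number 3, the repeat, all 6 correlations were negative (-0.27 to -0.18), so the check cannot decide whether samples were paired. The study trained same-sex littermates in pairs and took both regions from its mice. Which mice entered which pool is not given in the sources used here. With the replicate block, 2 members were called between the regions and 4431 genes in all, against 5054 without it. The number of pools limits what could be detected.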
